A study of Homo sapiens with 18 samples.

Results

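EGR1, EGR3, ATF3 and IER3, 4 immediate-early genes, were followed through 18 arrays of 6 lines of HEK cells, an established human embryonic kidney line. They were taken by the gene symbol of their probe sets, and are 4 of 14884 genes with a symbol on the array. EGR1, ATF3 and IER3 passed the filter on dim genes, under which at least 3 arrays had to exceed a log2 signal of 5.6, and were 3 of 9686 genes tested. EGR3 did not, with 2 arrays above that value. The genes were chosen by their measured signals in 2 comparisons, KO-labelled against wild-type lines and replicate 1 against replicates 2 and 3, so those comparisons are given here as descriptions, without a test for these genes.

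The wild-type lines were the parental HEK cells and N4 and N8, both CRISPR controls with wild-type ATXN1L. A10, A30 and B21 carried the label ATXN1L-KO. ATXN1L is a partner of the transcriptional repressor CIC, and the comparison of genotypes asks how expression differs where it was edited. Each line was measured in 3 cultures, numbered 1 to 3 in the labels. Cells were grown in DMEM with FBS, and the labels describe CRISPR treatment, puromycin selection and isolation of single colonies, in the same words for all 6 lines. Each line is therefore 1 colony or 1 parental stock, and 3 arrays of a line share its history. Differences between lines below are tested against the spread between cultures of a line and not against that between independent clones.

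Immediate-early genes are transcribed within minutes of a growth factor, serum or stress signal, without new protein synthesis. EGR1 and EGR3 encode zinc-finger transcription factors switched on through the ERK cascade and serum response factor, and NAB proteins act as their co-repressors. ATF3 encodes a bZIP factor induced by ERK and JNK signals and by the ATF4 branch of the stress response. IER3 encodes a short-lived protein linked to ERK and NF-kappaB signalling and to cell survival. CIC represses genes that ERK signalling releases, among them ETV4, ETV5 and several feedback inhibitors of the cascade.

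The promoter of EGR1 is shown because this gene had the widest range of signals of the 4 and because its regulatory elements are the textbook case of a serum response. The sequence is the 250 bases before the RefSeq start of EGR1 on the plus strand of GRCh38.p14 (chr5:138465229-138465478), with the CArG boxes bound by serum response factor and the matches to TGACG in capitals.
EGR1: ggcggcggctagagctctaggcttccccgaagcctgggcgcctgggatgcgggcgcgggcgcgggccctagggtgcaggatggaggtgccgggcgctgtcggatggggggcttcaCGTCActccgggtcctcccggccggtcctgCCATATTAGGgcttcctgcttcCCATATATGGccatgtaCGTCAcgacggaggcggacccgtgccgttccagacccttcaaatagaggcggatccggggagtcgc
This window held 2 CArG boxes, 105 and 83 bases before the start, and 2 matches to TGACG, both on the opposite strand, 135 and 66 bases before it. No match overlapped another. A CArG box was present in 1.16% of 35116 RefSeq promoter windows of the same length and TGACG in 21.2%. The window did not hold any of the other motifs searched on both strands: TGACGTCA (in 1.65% of windows), TGAATGAA (1.40%), TGAATGGA (0.832%), CACGTG (6.34%), GCGTGGGCG (0.72%), GCGGGGGCG (4.72%), TTCCGG (14.5%) and TATAAA (10.7%). For ATF3 the reference gave windows before 2 starts, and the only match in either was a TATAAA 230 bases before the second start. Other possible starts of ATF3 were not searched, and which start is used in these cells was not tested. The lack of matches therefore holds for these windows and not for ATF3 promoters in general. Promoters of EGR3 and IER3 were not used here.

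Array medians lay between 5.09 and 5.18 (log2), and no 2 arrays were identical. The first A10 culture resembled its own line least: after subtraction of each gene's mean over all arrays, its mean correlation across genes with the other A10 arrays was 0.0747, against 0.329 to 0.596 for every other array with its own line. Many of the values that rest on it are given below with and without it. Others, among them the FOS values, the correlations between genes and the list counts and medians, are given only with it. The signal of ATXN1L was 7.41 ± 0.06 (SD, n = 3 lines) in the KO-labelled and 7.16 ± 0.05 in the wild-type lines, higher and not lower, so this probe set does not check the labels. Of 10 kidney markers with a symbol, 9 passed the filter and PAX8 did not, and their mean level per array was 6.60 to 6.82 in the wild-type and 6.56 to 6.61 in the KO-labelled lines. PECAM1, KDR and VWF, the endothelial markers with a symbol, were all too dim to be tested. CD68 alone passed among the leukocyte markers (CD14 was dim) and LUM alone among the fibroblast markers (DCN was dim).

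EGR1 had its lowest signals in replicate 1 of 5 of the 6 lines. In replicates 1, 2 and 3 it was at 5.57, 7.25 and 7.47 (log2) for the parental line, at 6.18, 8.02 and 8.0 in N4, and at 6.29, 7.49 and 7.67 in N8. In the KO-labelled lines it was at 5.95, 6.76 and 6.95 for A10, at 6.61, 6.42 and 6.53 in A30, and at 5.79, 6.73 and 6.68 in B21. Replicates 2 and 3 of a wild-type line lay close together and far above replicate 1, while A30 stayed within a narrow range in all 3 cultures. The highest EGR1 signals were replicates 2 and 3 of N4. In RNA of whole cultures, fewer expressing cells and less RNA per cell cannot be told apart.

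EGR3 was dim. In replicates 1, 2 and 3 it was at 4.73, 5.30 and 5.09 in the parental line, at 5.16, 5.40 and 5.25 in N4, at 5.25, 5.17 and 5.40 in N8, at 5.11, 5.36 and 5.55 in A10, at 5.37, 5.56 and 5.75 in A30, and at 4.95, 5.62 and 4.97 in B21. Groups overlapped throughout, and only replicate 3 of A30 and replicate 2 of B21 exceeded the filter value. EGR4, a further member of the family, lay below the filter value on all arrays, at 4.43 to 5.26.

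ATF3 was at 6.76, 6.57 and 6.61 in replicates 1, 2 and 3 of the parental line, at 6.97, 6.67 and 6.56 in N4, and at 7.0, 6.87 and 6.87 in N8. It was at 6.76, 6.98 and 7.04 for A10, at 7.49, 7.21 and 7.13 in A30, and at 7.13, 7.33 and 7.25 in B21. All arrays of A30 and B21 lay above all wild-type arrays, whereas replicates 1 and 2 of A10 lay within the wild-type range. The share of all genes with this order of arrays was not counted.

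IER3 was at 7.22, 7.25 and 7.39 in replicates 1, 2 and 3 of the parental line, at 7.08, 7.49 and 7.45 in N4, and at 7.62, 7.77 and 7.86 in N8. It was at 7.29, 7.78 and 7.93 for A10, at 8.05, 8.24 and 8.28 in A30, and at 8.34, 8.82 and 8.76 in B21. All arrays of B21 lay above all arrays of A30, and those of A30 above all of the other 4 lines. A10 and N8 overlapped. Nor was the share of all genes with this order of lines, array by array, counted.

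**Figure D1:**
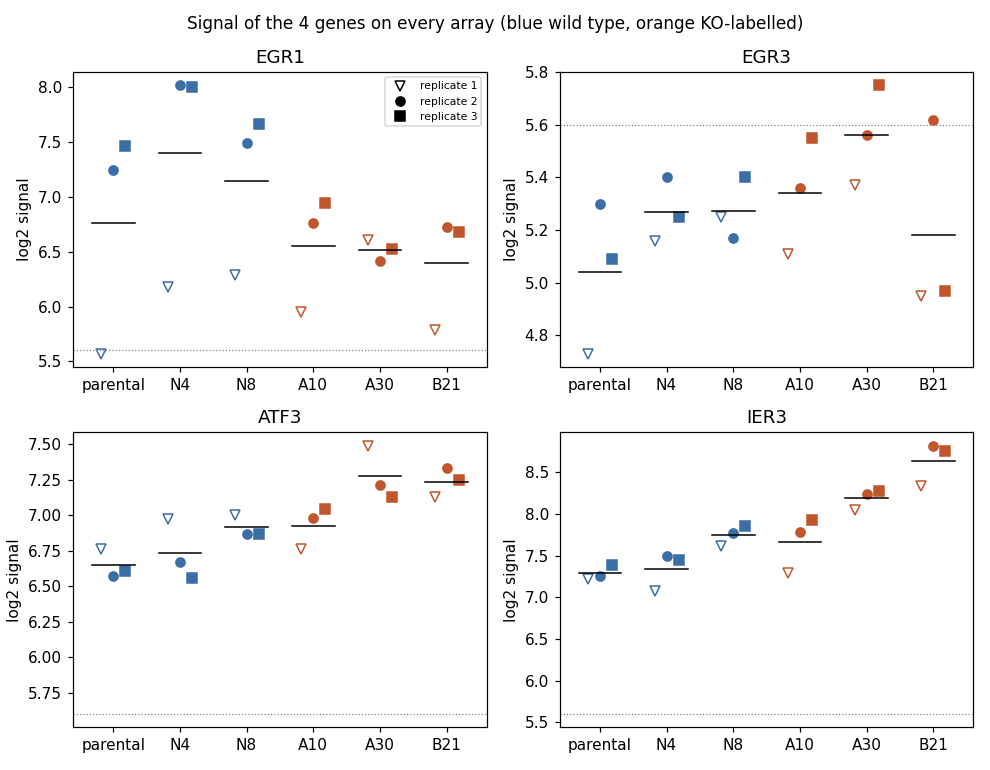
Log2 signal (vertical axis) of EGR1, EGR3, ATF3 and IER3 on each of 18 arrays, by line (horizontal axis), with open triangles for replicate 1, circles for replicate 2, squares for replicate 3, a bar at the mean of 3 arrays and a dotted line at the filter value of 5.6. EGR1 is lowest in replicate 1 of every line but A30, EGR3 lies almost wholly below the filter value, and IER3 is highest in A30 and B21.

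Lines of the same genotype were then compared with each other, a contrast outside the comparisons that chose the genes. Earlier results of these data were known at that choice, so full independence of these tests from it cannot be shown. IER3 differed among the KO-labelled lines. A10 averaged 7.67 ± 0.33 (SD, n = 3 arrays), A30 8.19 ± 0.12 and B21 8.64 ± 0.26, and limma's F test over these lines gave an adjusted p of 7.39e-04 for a range of 0.97. A difference among these lines was called for 25.8% of all genes tested. IER3 was higher in B21 than in A10 by 0.97 ± 0.15 (limma SE; adjusted p = 5.77e-04), a comparison that called 13.1% of genes. It was also higher in A30 than in A10 by 0.52 ± 0.15 (limma adjusted p = 0.0220), where 21.9% were called. Without replicate 1 of A10 the first difference was 0.79 (limma adjusted p = 0.00213), and the second, at 0.34, was not called (0.110). The second call also ended without replicate 2 or replicate 3 of A30. With replicate 1 left out of both lines, A10 averaged 7.86 and A30 8.26. B21 and A30 differed by 0.45 ± 0.15 (limma adjusted p = 0.0768), which missed the threshold that 9.80% of genes passed. The difference passed without replicate 1 of A10 (limma adjusted p = 0.0310) or without replicate 1 of B21 (0.0279). It also passed with replicate number as a further term (limma adjusted p = 0.00331), a fit that called 1443 of 9686 genes for this pair.

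ATF3 averaged 6.93 ± 0.15 in the A10 line, 7.28 ± 0.19 in A30 and 7.24 ± 0.10 in B21 (SD, n = 3 arrays). The range of 0.35 among these lines was just called (limma adjusted p = 0.0481). It was higher in A30 than in A10 by 0.35 ± 0.11 (limma adjusted p = 0.0341). B21 against A10 gave 0.31 ± 0.11 (0.0809) and B21 against A30 gave −0.04 ± 0.11 (0.874), neither past the threshold in the same limma fit. In replicates 2 and 3 alone, ATF3 in A30 exceeded A10 by 0.16 (limma adjusted p = 0.120), no longer called, and in B21 by 0.28 (0.0219), which was. The ATF3 calls were narrow: leaving out any 1 of 13 of the 18 arrays ended that among the 3 lines. Without replicate 1 of A10 the range was 0.27 (limma adjusted p = 0.211) and the difference of A30 from A10 was 0.27 (0.132). The difference of A30 from A10 also ended without replicate 2 of A10, replicate 1 of A30 or replicate 2 of A30.

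EGR1 did not differ among the KO-labelled lines beyond the spread of cultures. A10 averaged 6.55 ± 0.53, A30 6.52 ± 0.10 and B21 6.40 ± 0.53 (SD, n = 3 arrays), a range of 0.15 (limma adjusted p = 0.970). The pairwise differences ran from −0.15 to −0.03, each with a standard error of 0.52. In replicates 2 and 3 alone the order was A10, B21 and A30, with a range of 0.38 (limma adjusted p = 0.0406).

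Among the wild-type lines none of EGR1, ATF3 and IER3 was called, in an F test without a replicate term that called 16.1% of genes. The EGR1 means were 6.76 ± 1.04 for the parental cells, 7.40 ± 1.06 for N4 and 7.15 ± 0.75 for N8 (SD, n = 3 arrays), a range of 0.64 (limma adjusted p = 0.638). These SDs hold the low replicate 1 of each line, and with 1 array left out the range of EGR1 ran from 0.25 (without replicate 1 of the parental cells) to 1.25 (without replicate 1 of N4), with no call. N4 minus the parental cells ran from 0.04 to 1.25 without the same arrays. In replicates 2 and 3 alone, with means of 7.36, 8.01 and 7.58, the range of 0.65 was called (limma adjusted p = 0.00621). There EGR1 was higher in N4 than in the parental cells by 0.65 (limma adjusted p = 0.0242), and lower in N8 than in N4 by 0.43 (0.0187).

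The IER3 means were 7.29 ± 0.09 for the parental cells, 7.34 ± 0.23 for N4 and 7.75 ± 0.12 for N8 (SD, n = 3 arrays), a range of 0.46 (limma adjusted p = 0.0758). N8 was higher than the parental cells by 0.46 ± 0.15 (adjusted p = 0.0534), just outside the threshold that 14.7% of genes passed. N8 and N4 differed in IER3 by 0.41 ± 0.15 (limma adjusted p = 0.0884), where 13.9% of genes were called. Without replicate 1 of A10, which enters the fit only through the common spread, IER3 was called among the wild-type lines (limma adjusted p = 0.0282), and for N8 against the parental cells (0.0201) and against N4 (0.0378). N8 against the parental cells was also called without replicate 1 of N4, replicate 3 of A10 or replicate 1 of B21. With replicate number as a further term, IER3 was called among the wild-type lines (limma adjusted p = 0.00282). N8 was then also called against the parental cells (limma adjusted p = 0.00227) and against N4 (0.00493). That fit called 2427 of 9686 genes among the wild-type lines. ATF3 averaged 6.65 ± 0.10, 6.73 ± 0.21 and 6.91 ± 0.08 in the parental cells, N4 and N8, a range of 0.27 (limma adjusted p = 0.214), and in replicates 2 and 3 alone a range of 0.28 (0.0306). N4 and the parental cells differed by 0.64 ± 0.52 in EGR1, 0.09 ± 0.11 in ATF3 and 0.05 ± 0.15 in IER3, none of them called, in a comparison that called 0.547% of genes.

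**Figure D2:**
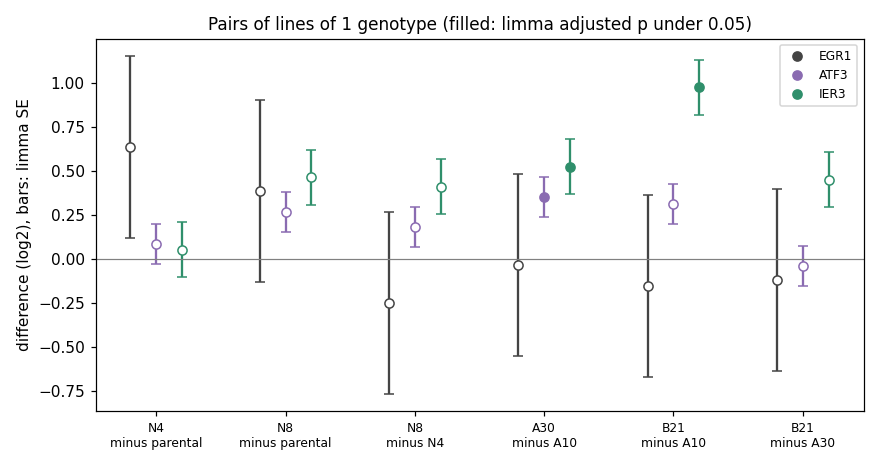
Difference in log2 signal (vertical axis, with limma standard errors) of EGR1, ATF3 and IER3 between lines of the same genotype (horizontal axis), filled where the adjusted p was under 0.05. The filled points are IER3 and ATF3 in A30 against A10 and IER3 in B21 against A10, and the EGR1 bars are the widest at 0.52.

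Over all 6 lines, ordered by mean, IER3 ran from the parental cells through N4, A10, N8 and A30 to B21. Neighbours in that order that were compared, N4 and the parental cells, and B21 and A30, did not differ past the threshold. With replicate number as a further term, B21 and A30 did. ATF3 ran from the parental cells through N4, N8, A10 and B21 to A30, and none of the neighbouring pairs of the same genotype was called. EGR1 ran from B21 through A30, A10, the parental cells and N8 to N4, again with no call between neighbours of the same genotype. EGR3 ran from 5.04 ± 0.29 in the parental cells through B21, N4, N8 and A10 to 5.56 ± 0.19 in A30 (SD, n = 3 arrays).

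The genotype comparison chose these genes, and it called 0 of all genes tested on line means, 3 against 3 (percent called 0, with 937 genes at an unadjusted p under 0.05 in limma). EGR1 was at 7.10 ± 0.32 (SD, n = 3 lines) in the wild-type and 6.49 ± 0.08 in the KO-labelled lines, a difference of −0.61 ± 0.15 (limma SE), or 1.53-fold. All KO-labelled means lay below all wild-type means, as they did for 7.22% of genes. Without replicate 1 of A10 its mean of 6.86 lay above the parental 6.76, which still held the low parental replicate 1 of 5.57. In replicates 2 and 3 of both lines, A10 was at 6.86 and the parental cells at 7.36. ATF3 was at 6.76 ± 0.14 and 7.15 ± 0.19, a difference of 0.38 ± 0.12, or 1.30-fold, with all KO-labelled means above all wild-type means, as for 7.37% of genes. IER3 was at 7.46 ± 0.25 and 8.17 ± 0.49, a difference of 0.71 ± 0.22, or 1.63-fold, and A10 lay below N8, an order that turned without replicate 1 of A10, where A10 averaged 7.86 against 7.75. EGR3 was at 5.19 ± 0.13 and 5.36 ± 0.19, a difference of 0.17 with overlapping lines. Without replicate 1 of A10, but with that of the other lines kept, the differences were −0.51 for EGR1, 0.41 for ATF3, 0.77 for IER3 and 0.20 for EGR3.

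Each KO-labelled line set against the average wild-type line, which all 3 comparisons share, gave EGR1 values of −0.55 for A10, −0.58 for A30 and −0.70 for B21, each ± 0.42 (limma SE). ATF3 gave 0.16, 0.51 and 0.47, each ± 0.09, and IER3 gave 0.21, 0.73 and 1.18, each ± 0.13. The EGR1 values had wide errors, and in replicate 1 alone A30 was 0.60 above the wild-type mean. ATF3 and IER3 had their smallest values in A10. Leaving out replicate 1 of A10 gave A10 values of −0.25 for EGR1, 0.25 for ATF3 and 0.40 for IER3. The wild-type mean still held replicate 1 there. In replicates 2 and 3 alone, A10 was at 6.86 against a wild-type mean of 7.65 for EGR1. It was at 7.01 against 6.69 for ATF3 and at 7.86 against 7.54 for IER3.

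The EGR1 difference between genotypes was seen in replicates 2 and 3 and not in replicate 1; the test of that contrast follows further on. In replicate 1 EGR1 was at 6.01 ± 0.39 (SD, n = 3 lines) in the wild-type and 6.12 ± 0.43 in the KO-labelled lines, a difference of 0.10 with overlapping values. In replicates 2 and 3 it was at 7.65 ± 0.33 and 6.68 ± 0.19, a difference of −0.97 or 1.96-fold, and every wild-type array, at 7.25 to 8.02, lay above every KO-labelled array, at 6.42 to 6.95. ATF3 differed by 0.22 in replicate 1 and by 0.47 in replicates 2 and 3, where no array of one genotype overlapped the other (6.56 to 6.87 against 6.98 to 7.33). Both genes were chosen on this contrast, and the share of all genes whose arrays separate like this was not counted. IER3 differed by 0.59 in replicate 1 and 0.77 in replicates 2 and 3, with overlapping arrays in both. EGR3 differed by 0.10 and 0.20.

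**Figure D3:**
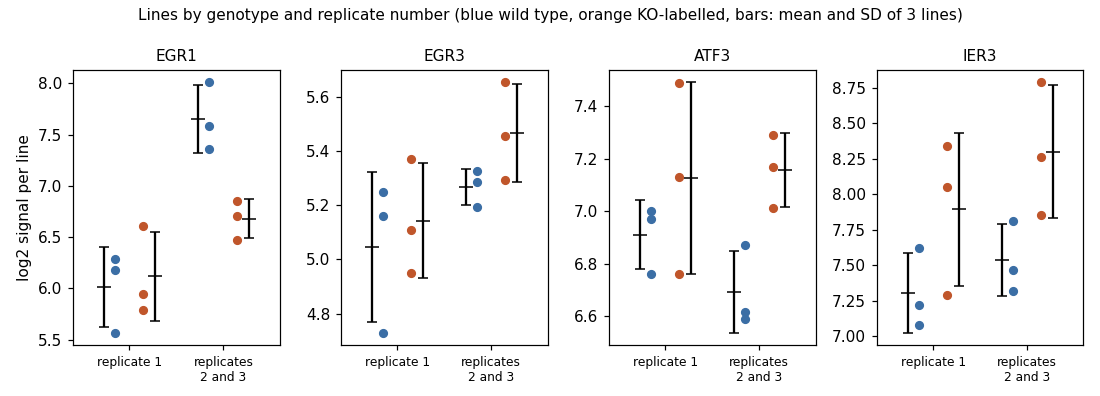
Log2 signal per line (vertical axis) of the 4 genes in replicate 1 and in the mean of replicates 2 and 3 (horizontal axis), with wild-type lines in blue and KO-labelled lines in orange and bars for the mean and SD of 3 lines. For EGR1 the genotypes overlap in replicate 1 and stand apart in replicates 2 and 3, at means of 7.65 and 6.68.

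Replicate 1 against replicates 2 and 3 also entered the choice of the genes. With the line as a term, limma called 10.0% of genes as lower and 8.56% as higher in replicate 1. The labels do not say whether cultures of the same number were handled together. Replicate 1 arrays of different lines deviated together in 15 of 15 pairs (r of 0.165 to 0.514). If the number marks a round of culture, p-values of this comparison measure agreement over lines and not the spread between rounds. EGR1 was lower by 1.10 ± 0.17 (limma SE) on the log2 scale, as a mean over the lines, with values of −1.79 for the parental cells, −1.83 for N4, −1.29 for N8, −0.91 in A10, 0.14 in A30 and −0.92 in B21. IER3 gave −0.32 ± 0.05 and EGR3 −0.27, each lower in replicate 1 than in the mean of replicates 2 and 3 in all 6 lines, as were 9.23% of genes. ATF3 gave 0.09 ± 0.07 and was lower in replicate 1 only of A10 and B21. With that A10 array left out the values were −1.14 for EGR1, −0.27 for IER3, −0.26 for EGR3 and 0.16 for ATF3.

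Whether the replicate 1 difference depended on the genotype was tested on 1 value per line. Replicate 1 minus replicates 2 and 3 was −1.64 ± 0.30 (SD, n = 3 lines) for EGR1 in the wild-type lines and −0.56 ± 0.60 in the KO-labelled lines, a difference of 1.08 ± 0.27 (limma SE). Every wild-type line had a lower value than every KO-labelled line, an order that 4.32% of genes shared. The unadjusted limma p was 0.00273 and the adjusted p 0.937, so EGR1 did not pass. With arrays in place of lines as the unit the adjusted limma p was 0.339, and without replicate 1 of A10 it was 0.659 for a difference of 1.25. The differences were −0.25 ± 0.15 for ATF3 and −0.18 ± 0.12 for IER3 (limma adjusted p = 0.950 for both). No gene was called (0% of those tested), and 512 had an unadjusted p under 0.05 in limma.

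Replicates 3 and 2, which did not choose the genes, did not differ past the threshold: 0.11 ± 0.20 for EGR1, −0.03 ± 0.08 for ATF3 and 0.05 ± 0.06 for IER3 (limma adjusted p = 0.912, 0.940 and 0.850). Here too limma called 0% of genes, with 726 at an unadjusted p under 0.05.

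FOS, the partner of JUN in AP-1 and like EGR1 a target of serum response factor, was the gene whose signal most resembled that of EGR1 over the 18 arrays (r = 0.844 across arrays, which share line and replicate number). In replicates 1, 2 and 3 FOS was at 5.24, 6.23 and 6.14 in the parental line, at 5.79, 6.52 and 6.65 in N4, and at 5.30, 5.95 and 6.04 in N8. It was at 5.52, 5.86 and 5.50 for A10, at 5.68, 6.06 and 5.72 in A30, and at 5.44, 5.68 and 5.99 in B21. Because FOS was singled out here for its likeness to EGR1, its differences are given without a test. Replicate 1 minus replicates 2 and 3 was −0.53 ± 0.10 (limma SE), with −0.81 ± 0.13 (SD, n = 3 lines) in the wild-type and −0.26 ± 0.12 in the KO-labelled lines. These values differed by 0.56 ± 0.11 between the genotypes. FOS in replicates 2 and 3 was at 6.26 ± 0.30 in the wild-type and 5.80 ± 0.11 in the KO-labelled lines, and over all replicates the genotypes differed by −0.27 ± 0.14.

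**Figure D4:**
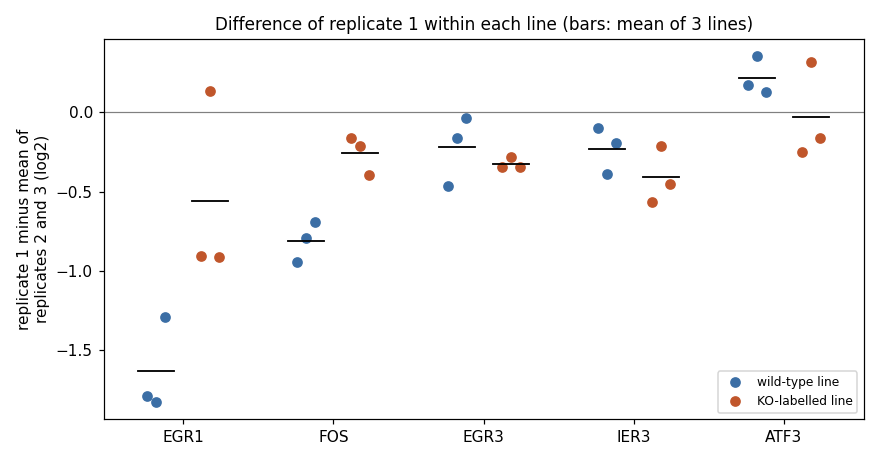
Replicate 1 minus the mean of replicates 2 and 3 (vertical axis, log2) of EGR1, FOS, EGR3, IER3 and ATF3 (horizontal axis), 1 point per line, with wild-type lines in blue, KO-labelled lines in orange and a bar at the mean of 3 lines. EGR1 and FOS are lower in replicate 1 in the wild-type lines, at means of −1.64 and −0.81, than in the KO-labelled lines, at −0.56 and −0.26. The difference was not called for EGR1 or for any other gene, and FOS was singled out for its likeness to EGR1.

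The genes next most like EGR1 over the 18 arrays were OGFOD1 (r = 0.829), PRRT3-AS1 (0.810), CTCF (0.807) and GRK6 (0.792). After removal of each line's mean they were CLIC1 (0.947), PDCD2L (0.943) and ZNF524 (0.931). For ATF3 they were EXT2 (0.934), RTTN (0.920), PHLPP1 (0.919), ADNP2 (0.895) and FN1 (0.893), and within lines SERINC5 (0.866), JAG1 (0.822) and OCRL (0.804). For IER3 they were MYOF (0.975), EDN1 (0.957), TUFT1 (0.955), BICC1 (0.951) and NFIX (0.949), and within lines PCBP1 (0.950), KXD1 (0.944) and ETS2 (0.932). Among the 4 genes, ATF3 and IER3 were most alike over all arrays (r = 0.782), but not within lines (−0.0346). EGR1 and IER3 were alike within lines (0.739) and not over all arrays (−0.102), and EGR1 and ATF3 had −0.435 and −0.353. These are descriptions over 18 arrays of 6 lines.

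Other early-response and signalling genes were read from lists, beside the share of all genes called. The limit given above for p-values of the replicate 1 comparison holds for these genes as well. In replicate 1, 6 of 14 other early-response genes fell and 0 rose, against 10.0% and 8.56% of all genes, with a median of −0.09 against −0.01 over all genes. CCN2, a matricellular protein gene, fell by 0.98 ± 0.20 (limma adjusted p = 0.00355), and DUSP1, a phosphatase of MAP kinases, by 0.64 ± 0.07 (1.18e-04). HBEGF, an EGF receptor ligand, fell by 0.33 ± 0.06 (limma adjusted p = 0.00186), and MCL1, a survival gene, by 0.18 ± 0.04 (0.00762). Of 10 CIC targets and ERK feedback genes 8 fell and 0 rose, with a median of −0.34. Among them were DUSP5 (−0.54, limma adjusted p = 0.00785) and SPRY4 (−0.54, 0.00403), both inhibitors of ERK signalling, the ETS factor ETV5 (−0.45, 0.00327) and SPRY2 (−0.32, 0.00308).

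The counts in this paragraph stand against 10.0% of all genes called as lower and 8.56% as higher in replicate 1. Of 14 AP-1, ATF and small MAF genes other than ATF3, 5 fell and 1 rose in replicate 1. The 1 that rose was JUND (0.15, limma adjusted p = 0.0497), named after its value was seen. The 5 include FOS, described above for its likeness to EGR1, and FOSB (−0.35, limma adjusted p = 8.44e-04), ATF5 (−0.28, 0.00532) and FOSL1 (−0.25, 0.0114). FOS is counted as a member of the list, but EGR1 was chosen on this comparison, so the place of FOS in the count is not separate evidence. ATF4, the regulator upstream of ATF3 in the stress response, fell by 0.18 (limma adjusted p = 0.0257). It is counted both among the AP-1, ATF and small MAF genes and in the ATF4 list. Its target ASNS fell by 0.26 (limma adjusted p = 0.00907) and the chaperone partner SDF2L1 by 0.22 (0.0450). With ATF4 these were 3 of 8 genes of the ATF4 list, while ATF3 had 0.09. Of 12 genes of the ERK cascade and serum response, 2 fell, SRF (−0.19, limma adjusted p = 0.0117) and HRAS (−0.19, 0.0268), and 2 rose, MRTFB (0.13, 0.0438) and SOS2 (0.14, 0.0497). NAB1, a co-repressor of EGR proteins, rose by 0.19 (limma adjusted p = 0.0135), and NAB2, the other gene of its list tested, was not called. None of 8 genes of the NF-kappaB list was called there. The calls of MRTFB and SOS2 were lost on leaving out any 1 of 14 arrays, that of SDF2L1 any 1 of 12 and those of ATF4 and HRAS any 1 of 3, replicate 1 of A10 among them in each case, and all 5 were lost without the filter. SRF was not called without replicate 1 of N8, nor NAB1 without replicate 1 of N4.

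**Figure D5:**
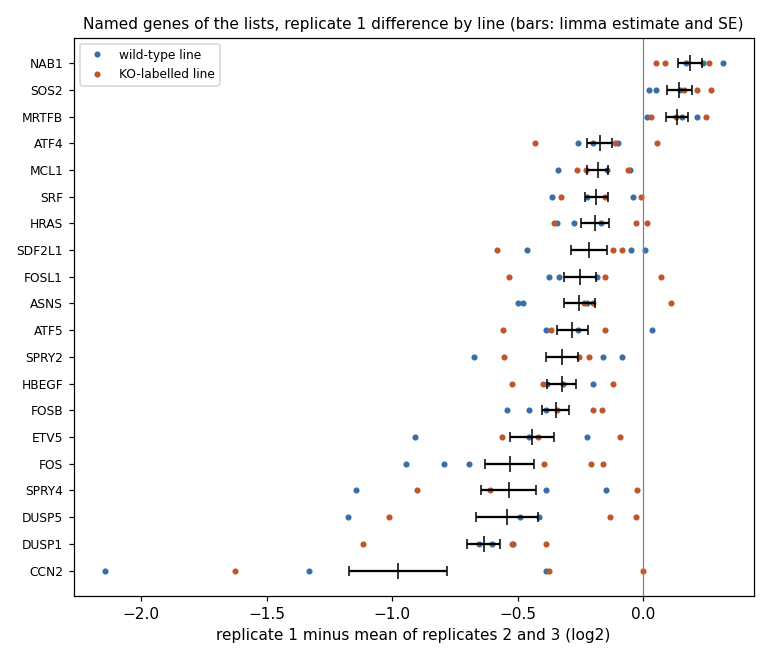
Replicate 1 minus the mean of replicates 2 and 3 (horizontal axis, log2) of the genes named from the lists (vertical axis), with 1 point per line, wild-type lines in blue and KO-labelled lines in orange, and a bar with limma's estimate and standard error. CCN2 lies lowest at −0.98 with a wide spread of lines, DUSP1 is at −0.64, and NAB1, MRTFB and SOS2 lie above 0.

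Between the genotypes, 0 genes of any of these lists passed, as for all genes. The CIC targets and ERK feedback genes had a median difference of 0.50 and 10 of 10 above 0, and the other early-response genes a median of 0.16 and 11 of 14 above 0, against a median of 0.00 over all genes. The ATF4 and unfolded protein response genes had a median of 0.23, and the AP-1, ATF and small MAF genes one of 0.02. The median was 0.02 for the genes of the ERK cascade and serum response and 0.06 for the NF-kappaB list. It was −0.06 for the 2 EGR and NAB genes tested.

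Listed genes were called among the KO-labelled lines at shares that mostly lay near that of all genes. Among the KO-labelled lines, 5 of 14 other early-response genes were called, against 25.8% of all genes. These included the kinase gene SGK1, at 4.89, 5.59 and 5.97 in A10, A30 and B21 (limma adjusted p = 2.22e-05), and IER2, at 6.55, 7.11 and 7.03 (8.17e-04). KLF6 was at 7.70, 8.07 and 7.94 (limma adjusted p = 0.00387) and IER5 at 7.88, 8.21 and 8.31 (0.00558). A10 was the lowest of the 3 lines for all 4, as it was for ATF3 and IER3. The share of all genes that were lowest in A10 was not counted. The fifth, MYC, named after its value was seen, was at 7.38, 6.63 and 7.62 (limma adjusted p = 0.00727), lowest in A30. The AP-1 genes JUNB, at 6.69, 7.20 and 7.01 (limma adjusted p = 3.77e-04), and FOSL2, at 6.34, 6.82 and 6.89 (0.00256), were 2 of 14 of their list, against 25.8% of all genes.

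In the ERK cascade 3 of 12 genes were called among the KO-labelled lines, close to the 25.8% of all genes, and the next 3 lists were near it as well. EGFR, the EGF receptor, was at 7.52, 8.04 and 8.30 in A10, A30 and B21 (limma adjusted p = 3.02e-04), HRAS at 7.41, 7.73 and 7.79 (0.0464) and MRTFB at 9.43, 9.15 and 9.42 (0.0365). Of the CIC targets and feedback genes 3 of 10 were called: CCND1 at 8.39, 8.42 and 8.80 (limma adjusted p = 0.00490), DUSP5 at 5.08, 6.01 and 6.06 (0.0278) and DUSP4 at 6.23, 6.73 and 6.80 (0.0420). VLDLR, at 7.21, 7.74 and 8.01 (limma adjusted p = 8.80e-05), and ASNS, at 7.60, 7.96 and 8.10 (0.0326), were 2 of 8 of the ATF4 list. NFKB1, at 7.41, 6.95 and 7.53 (limma adjusted p = 4.57e-04), and the chemokine gene CCL2, at 4.82, 6.74 and 5.74 (8.86e-04), were 2 of 8 of the NF-kappaB list. With replicate 1 of A10 left out, HRAS, DUSP4, DUSP5 and ASNS were not called among these lines. The call was lost on leaving out any 1 of 12 arrays for HRAS, of 11 for DUSP4, of 5 for ASNS, of 4 for MRTFB and of 2 for DUSP5. Centred on neighbouring genes, the range of NFKB1 was 0.18 (limma adjusted p = 0.358) and that of HRAS 0.21 (0.469), and ASNS, DUSP4 and DUSP5 were not called.

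Among the wild-type lines, 4 of 14 AP-1, ATF and small MAF genes were called, against 16.1% of all genes. JUN was at 10.1, 10.3 and 9.78 in the parental cells, N4 and N8 (limma adjusted p = 0.0100), JUND at 8.88, 8.97 and 8.47 (0.00538), FOSL2 at 6.20, 6.28 and 6.71 (0.00814) and ATF2 at 9.17, 9.19 and 8.86 (0.0319). TRIB1, at 7.77, 8.54 and 7.10 (limma adjusted p = 0.00629), and ARC, at 6.10, 6.24 and 5.91 (0.0480), were 2 of 14 of the other early-response genes. CCL2, at 4.73, 4.24 and 6.55 (limma adjusted p = 2.82e-04), and NFKB2, at 6.15, 6.21 and 6.57 (0.0309), were highest in N8, as were IER3 and ATF3 without a call. The share of all genes that were highest in N8 was not counted either. SOS1, at 8.89, 8.71 and 9.05 (limma adjusted p = 0.0360), was 1 of 12 of the ERK cascade and ASNS, at 7.70, 7.77 and 7.26 (0.0344), 1 of 8 of the ATF4 list. Centred on neighbouring genes, SOS1 had a range of 0.10 (limma adjusted p = 0.720), NFKB2 of 0.23 (0.429), ARC of 0.18 (0.397) and FOSL2 of 0.31 (0.231), and JUN, ATF2, ASNS and TRIB1 were not called either. The ARC call was lost on leaving out any 1 of 14 arrays, those of SOS1, NFKB2 and ASNS any 1 of 6, and that of ATF2 any 1 of 5. No CIC target or feedback gene and no EGR or NAB gene was called among these lines. LUM, the fibroblast marker that passed the filter, differed among the wild-type lines by 0.56 (limma adjusted p = 0.0178) and among the KO-labelled lines by 1.04 (8.47e-05), and CD68 among the wild-type lines by 0.77 (8.57e-04). In the same limma tests the kidney markers EYA1 (0.81, 0.0152; lowest in A10) and HOXD11 (0.57, 5.11e-04) differed among the KO-labelled lines, and OSR1 (0.71, 0.00136), GATA3 (0.34, 0.00815) and PAX2 (0.35, 0.0348) among the wild-type lines, each highest in N8. The part of these markers in the differences of IER3 and ATF3 was not tested.

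Signals were also set beside those of 20 tested neighbouring genes on each side, as medians relative to the parental cells. The neighbours of ATF3 were at −0.19 to −0.12 in the other lines, while ATF3 was at 0.09 to 0.63. For IER3 the neighbours lay between −0.02 and 0.06 and IER3 itself between 0.05 and 1.35. The neighbours of EGR1 lay between −0.11 and 0.10 and those of EGR3 between 0.02 and 0.19.

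Different probe sets gave different pictures of IER3. It had 11, which held 4 distinct sets of values. The probe set used, 4 identical ones and 1 more gave genotype differences of 0.71, 0.73 and 0.67 and replicate 1 differences of −0.32, −0.36 and −0.31. The other 5, identical to each other, ran from 5.70 to 6.25 over all arrays, with a genotype difference of −0.03 and a replicate 1 difference of 0.08. By those 5 probe sets the range of IER3 among the KO-labelled lines was 0.29 (limma adjusted p = 0.126). EGR1 had a second, dim probe set that never exceeded the filter value, with a genotype difference of −0.39 and a replicate 1 difference of −0.34. ATF3 and EGR3 had 1 probe set each.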

How the data were processed

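RNA from 18 cultures, extracted per the labels' protocols with a miRNeasy kit, was measured on Affymetrix arrays. The deposited values are log2 signals, 1 per probe set and array, which the authors made with Affymetrix Expression Console per the submitters' processing notes; the sources used here do not give its version or settings. They were used as deposited, without a pseudocount. Precision is limited by the number of arrays.

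Of 53617 probe sets, 16098 carried 1 gene symbol, covering 14884 genes; of several probe sets, that with the highest mean was used. Genes with at least 3 arrays above 5.6, the 40th percentile of named probe sets, were tested (9686). Comparisons used limma 3.58.1 in R 4.3.3, two-sided, with Benjamini-Hochberg adjustment over all genes tested and a threshold of 0.05: line means with a common spread, line plus replicate number, or 1 value per line for genotype. With 3 lines against 3, an exact permutation test cannot go below 0.1. The fits were tested on simulated data. Alternatives covered filter, normalisation, variance model, replicate number, neighbouring genes, probe sets, and leaving out arrays and lines.

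The members and lists were chosen with earlier results of these data known. Named from each list were up to 4 genes with the smallest p among those called in a comparison; genes most like a member were the 5 with the highest Pearson r over 18 arrays and the 3 with the highest r within lines. Replicate 1 of A10 was singled out after its values were seen. Promoters and the order of genes are from RefSeq; 2 of the 4 genes had promoter entries. Figures were drawn with matplotlib 3.10.9 and pandas 2.3.3.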

Additional observations from a re-analysis of the deposited data

How the results depend on the processing

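The range of ATF3 among the KO-labelled lines was 0.35 without the filter (limma adjusted p = 0.0913) and 0.27 to 0.42 without 1 array, with the call lost in 13 of 18 cases. In replicates 2 and 3 only, limma called ranges that were not called in all replicates: ATF3 0.28, EGR1 0.65 and IER3 0.50 (adjusted p = 0.00681) among the wild-type lines and EGR1 0.38 among the KO-labelled lines. There the EGR1 genotype difference was −0.97, and in replicate 1 only, an alternative chosen after seeing the data, 0.10. There too ATF3 differed by 0.12 between B21 and A30, EGR1 by 0.23 between B21 and A30 and EGR3 by 0.027 between B21 and the wild-type mean, against the sign in all replicates, and ATF3 in A30 against A10 was not called (0.16, adjusted p = 0.120), while ATF3 was called for B21 against A10, N8 against the parental cells (0.28, 0.0227) and N8 against N4 (0.26, 0.0342). In replicate 1 only, against the wild-type mean, ATF3 in A10 was −0.15, EGR1 in A30 0.60 and IER3 in A10 −0.017.

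The second EGR1 probe set gave a replicate 1 difference of −0.34. The 5 IER3 probe sets with the lowest values gave a range of 0.29 among the KO-labelled lines, a genotype difference of −0.034, a replicate 1 difference of 0.075, replicate 3 minus 2 of −0.043, A30 minus A10 of −0.26, A30 minus wild type of −0.22 and N4 minus parental of −0.0067. Centred on 41 neighbouring genes, EGR1 in B21 differed by 0.039 from A10 and by 0.064 from A30.

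Without 1 array, IER3 among the wild-type lines ranged from 0.41 to 0.53, ATF3 for replicate 3 minus 2 from −0.076 to 0.01 and EGR1 from −0.019 to 0.23. Small differences changed sign: ATF3 B21 minus A30 (−0.11 to 0.067) and N4 minus parental (−0.032 to 0.17); EGR1 A30 minus A10 (−0.34 to 0.17), B21 minus A10 (−0.46 to 0.15), B21 minus A30 (−0.29 to 0.19), N8 minus N4 (−0.86 to 0.18) and N8 minus parental (−0.21 to 0.82); EGR3 B21 minus wild type (−0.23 to 0.10); IER3 N4 minus parental (−0.022 to 0.18). The cause was not tested.

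Same-numbered arrays of different lines deviated together in 39 of 45 pairs (r over 0.1), and 15 of 18 arrays correlated best with their own number, a hint from the data. With a replicate block the IER3 range of 0.46 among the wild-type lines was called (limma adjusted p = 0.00282), as was IER3 for B21 minus A30 (0.00331), N8 minus parental (0.00227) and N8 minus N4 (0.00493). The block changed no other call of EGR1, ATF3 or IER3. Counts of calls with the block rose from 53 to 168 for N4 against the parental cells, from 1561 to 2427 among the wild-type lines and from 2503 to 3358 among the KO-labelled lines. Centred on neighbours the last 2 were 506 and 1209. Without 1 array the count for N4 ran from 9 (without N4 replicate 2) to 116 (without A10 replicate 1). Of the alternative values of genes named from lists, 156 lost the call and 927 kept it. The genotype comparison called 6 genes in replicates 2 and 3 only and 5 without A10 replicate 1.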
